A study of Mus musculus with 12 samples.

Results

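The data described here are the RNA levels of 10 genes of the transforming growth factor β (TGF-β) and bone morphogenetic protein (BMP) pathways in mouse mammary organoids. They were chosen by gene symbol: the ligands Tgfb1, Tgfb2, Tgfb3, Bmp2, Bmp4 and Bmp7, the decoy receptor Bambi, and the target genes Id1, Id2 and Id3. The symbol list found 10 rows among the 25210 genes counted. All 10 were among the 15316 genes that passed the filter on low counts, but Bmp4 reached the required level in the vehicle libraries only.

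TGF-β and BMP ligands are secreted dimers that bring together type I and type II receptor kinases, which phosphorylate SMAD proteins. TGF-βs and activins act mainly through SMAD2 and SMAD3, and BMPs mainly through SMAD1, SMAD5 and SMAD9, each with SMAD4. In the mammary gland, TGF-β restrains duct growth and TGF-β3 is linked to the cell loss after weaning, while BMPs and their target genes of the inhibitor of DNA binding (ID) family take part in bud formation and lineage choice.

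The organoids were groups of primary mammary epithelial cells from virgin female FVB/N mice aged 8 to 11 weeks, embedded in growth-factor reduced Matrigel, a basement membrane gel, in minimal medium. For 7 days they received dimethyl sulfoxide (DMSO) as the vehicle, or the GSK3 inhibitor CHIR99021 at 1, 1.5 or 3 µM. The inhibitor was used to raise WNT/β-catenin (CTNNB1) signalling; GSK3 is a kinase with further substrates, so the groups model loss of its activity. The labels describe 3 independent cultures, each from 1 animal and each given all 4 treatments, which makes 12 libraries with 3 per group; the cultures are called 1, 2 and 3. The labels also tag cultures 1, 2 and 3 as med, min and max, words whose meaning is not given in the sources used here. All groups share strain, medium and gel, and no other genotype or agent is named.

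Library totals ranged from 10.1 to 24.5 M (mega) counts of polyadenylated RNA. Levels are counts per M (CPM) with library sizes scaled by edgeR's TMM method (trimmed mean of M values). Markers of cells other than epithelium were present, with lower sums at 3 µM than in DMSO: the 8 fibroblast genes summed to 2276 to 23446 CPM in DMSO and 247 to 5569 CPM at 3 µM, the 6 macrophage genes to 260 to 2524 and 39.4 to 117 CPM, the 5 endothelial genes to 243 to 503 and 27.1 to 86.6 CPM, and the 4 adipocyte genes to 1019 to 2513 and 1.86 to 44.7 CPM. At 3 µM, 5 of 5 endothelial, 5 of 6 macrophage and 4 of 4 adipocyte genes fell (edgeR quasi-likelihood test, adjusted p under 0.05), whereas 0 of 8 fibroblast genes passed, also 0 of 8 at an unadjusted p under 0.05, and 7 of 8 fell with culture as a block. The 6 epithelial markers were present in every group: Epcam, a pan-epithelial surface protein, was at 466 ± 126 CPM in DMSO and 604 ± 137 CPM at 3 µM (SD, n = 3). At 3 µM, 2 of the 6 rose (the basal keratins Krt5 and Krt14) and 2 fell (the luminal keratins Krt8, from 825 to 492 CPM, and Krt18, from 589 to 423 CPM), while Epcam and Cdh1 did not pass (Cdh1 rose with the block, edgeR adjusted p = 0.00943). The 8 markers of squamous, skin-like differentiation summed to 86.0 to 123 CPM in DMSO and 5945 to 26437 CPM at 3 µM, and 8 of 8 rose, while 6 of 8 luminal markers fell. The marker lists were chosen with earlier results of these data known. Lor and Flg, on the squamous list, had at most 3 counts in any DMSO library and passed the filter through treated libraries. Their rise was thus favoured by the selection, and the squamous count is a description. Of the 7 basal or myoepithelial markers, 3 rose (Krt5, Krt14 and Trp63) and 4 fell. Those that fell were Acta2 (from 326 to 14.0 CPM), Myh11 (79.7 to 2.07 CPM), Cnn1 (33.8 to 0.712 CPM) and Oxtr (187 to 1.39 CPM). Over all genes tested, 29.9% rose and 27.7% fell at 3 µM (34.1% and 34.8% with culture as a block). No listed marker was at 0 in any whole group. In bulk RNA, fewer cells of a type and less RNA per cell cannot be told apart.

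**Figure D1:**
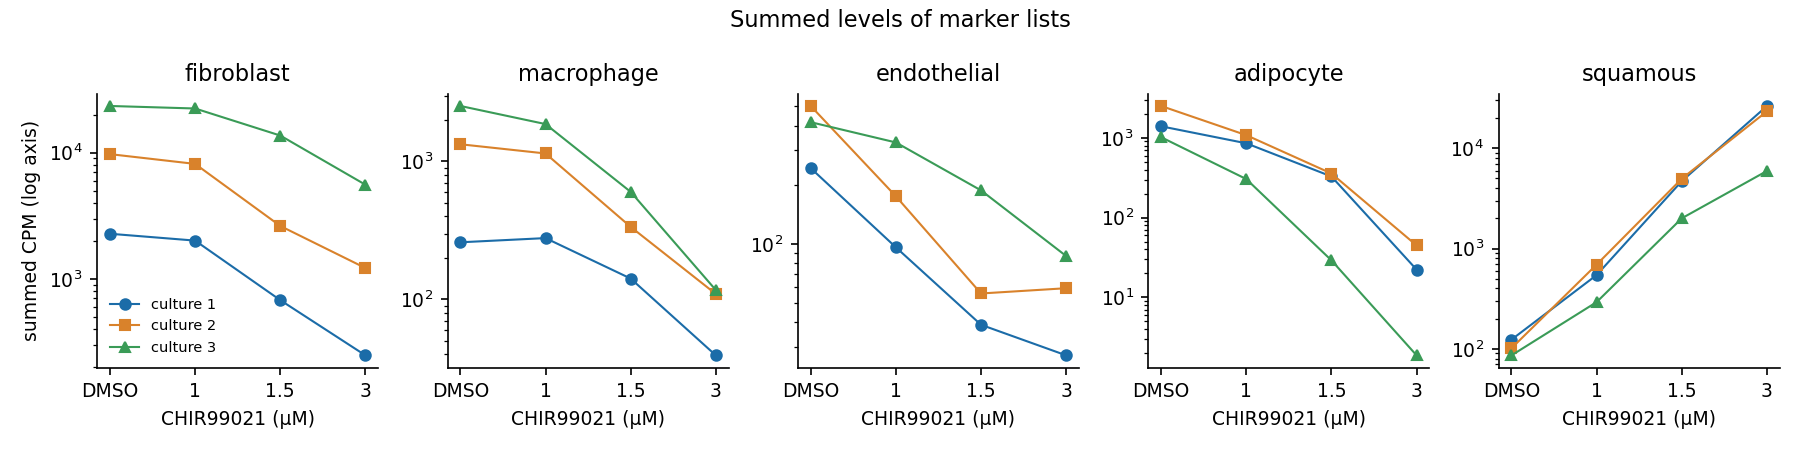
Summed CPM (log axis) of 5 marker lists against CHIR99021 dose, with 1 line per culture. Culture 3 held the highest fibroblast sum at each dose, from 23446 CPM in DMSO to 5569 CPM at 3 µM, and the squamous sum was above its DMSO value at each dose in each culture.

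Among the 10 genes, Tgfb3 showed the largest difference, 11.6-fold lower at 3 µM than in DMSO, and Bmp7 was the only one that rose in the test without a culture term, 3.23-fold at the same dose. Bambi fell slightly at 3 µM, and Bmp2 fell at 1.5 µM. Id1, Id2 and Id3 differed between cultures and were lowest in culture 3 in each group. Id3 was lower in each culture at 1.5 and 3 µM than in DMSO. It passed at both doses with culture as a block (edgeR adjusted p = 0.000413 and 0.000918), but not without it (0.146 and 0.173). Each culture received all 4 treatments, so the test without the block counts lasting differences between cultures as spread. At 1 µM, 0 of 10 genes passed edgeR's test, against 0.242% of all genes tested; 0 passed at an unadjusted p under 0.05, 0 with DESeq2 and 0 with culture as a block (5.61% of all genes with the block). At 1.5 µM, 1 gene rose and 2 fell (27.3% of all genes tested passed, 15.4% higher and 11.8% lower). At 3 µM, 1 rose and 2 fell (57.5% of all genes passed, 29.9% higher and 27.7% lower). With culture as a block, 2 rose and 5 fell at 1.5 µM (46.7% of all genes passed, 22.3% higher and 24.3% lower) and 1 rose and 5 fell at 3 µM (68.9% of all genes passed, 34.1% higher and 34.8% lower). The libraries of 3 of 10 genes did not overlap between 1.5 µM and DMSO (45.6% of all genes), and those of 4 of 10 between 3 µM and DMSO (60.8% of all genes). Both counts include Bmp4, which entered the tested set only through its high DMSO libraries. Without the block, the number that passed at 1.5 µM was 0 without culture 1, 1 without culture 2 and 5 without culture 3. It was also 1 without the DMSO library of culture 3 or without the 1.5 µM library of culture 2. At 3 µM it was 5 without culture 3. Bmp4 is among the 5 at both doses, and its selection favoured a fall. The median log2 fold change of the 10 genes was -0.53 at 1.5 µM and -0.43 at 3 µM, beside -0.0018 and -0.030 over all genes. Both medians include Bmp4, whose selection through its DMSO libraries favoured a fall. These comparisons share the DMSO libraries.

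**Figure D2:**
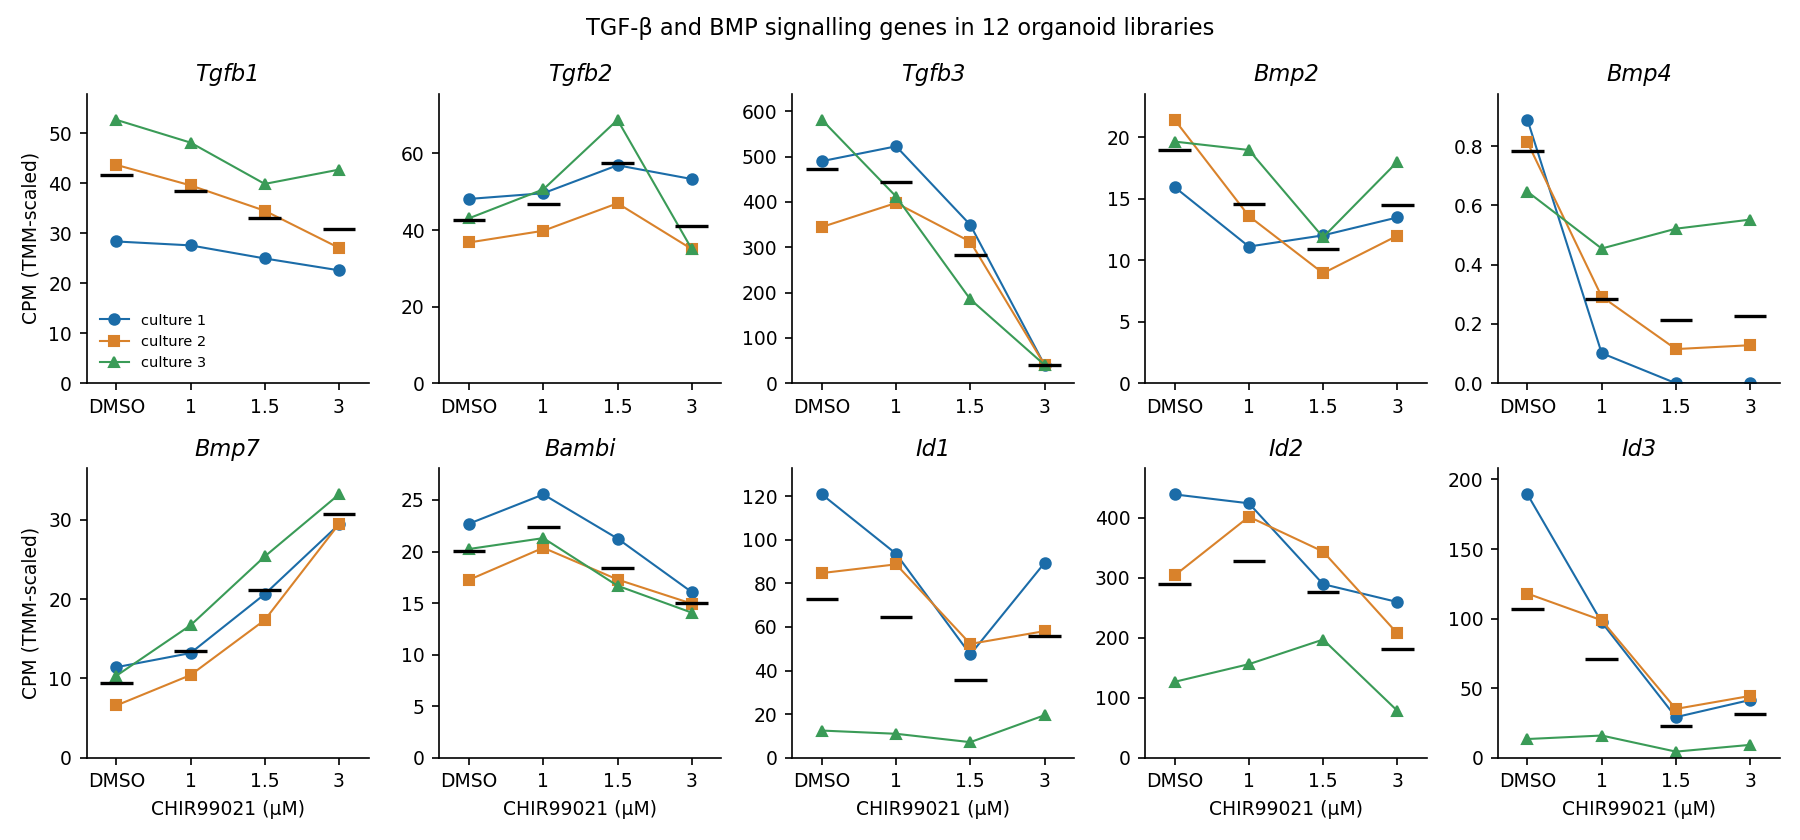
CPM of the 10 genes (y axis, from 0) against CHIR99021 dose, with 1 line per culture and a black bar at each group mean. Tgfb3 met at about 40.6 CPM at 3 µM in all 3 cultures, Bmp7 was higher at 3 µM than in DMSO in all 3, and Id1 and Id3 were lowest in culture 3 at every dose.

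Tgfb3 (chr12:86056744-86079041, minus strand), which encodes the TGF-β3 ligand, was at 490.0, 345 and 581 CPM in the DMSO libraries of cultures 1, 2 and 3. It was at 523, 398 and 412 CPM at 1 µM, at 349, 312 and 185 CPM at 1.5 µM, and at 40.5, 40.8 and 40.6 CPM at 3 µM. The 3 µM libraries lay far below the other 9 and hardly differed from each other, although the DMSO libraries spread over more than 200 CPM. The log2 fold change at 3 µM was -3.54 ± 0.27 (SE, n = 3 per group; edgeR adjusted p = 5.53e-06), and 12 of 12 fits that each left out 1 library kept the call, with values from -3.74 to -3.40. The step from 1.5 to 3 µM was -2.80 ± 0.26 (edgeR adjusted p = 0.000153), with no overlap between the groups. At 1.5 µM the difference from DMSO was smaller, -0.74 ± 0.24 (edgeR adjusted p = 0.0441), and the groups overlapped. That call was lost in 8 of 12 fits that left out 1 library, up to an adjusted p of 0.118 without the DMSO library of culture 3, and also without filter (0.0756), with library totals as the only scaling (0.0772), in the fit of these groups alone (0.134) and without any 1 culture (0.115, 0.139 and 0.278). Tgfb3 overlaps Gm37804, Gm48008 and Ttll5, a tubulin glutamylase gene, on the opposite strand in GENCODE M21. Whether counting used the strand is not given in the sources used here. Ttll5 was at 28.3 ± 5.21 CPM in DMSO and 25.3 ± 4.78 CPM at 3 µM (log2 fold change -0.17 ± 0.26, edgeR adjusted p = 0.602).

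Tgfb1 (chr7:25687002-25705077, plus strand), which encodes the most widely studied TGF-β ligand, was at 28.3, 43.7 and 52.7 CPM in DMSO in cultures 1, 2 and 3. The values were 27.6, 39.6 and 48.1 CPM at 1 µM, 25.0, 34.5 and 39.9 CPM at 1.5 µM, and 22.6, 27.1 and 42.7 CPM at 3 µM. Culture 1 was lowest and culture 3 highest at every dose, and each culture was lower at each dose than in DMSO, so the groups overlapped. Its log2 fold change was -0.33 ± 0.31 at 1.5 µM and -0.43 ± 0.31 at 3 µM (edgeR adjusted p = 0.463 and 0.259), and with culture as a block the adjusted p was 0.0260 and 0.00307. The blocked call at 1.5 µM was lost in 4 of 12 fits without 1 library (up to 0.112, without the 1.5 µM library of culture 3), and that at 3 µM was kept in 12 of 12. The fibroblast markers had the same order, with sums of 2276, 9734 and 23446 CPM in DMSO and 247, 1218 and 5569 CPM at 3 µM in cultures 1, 2 and 3; their part in the result was not tested.

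Tgfb2 (chr1:186623186-186705992, minus strand) encodes a further TGF-β isoform. RefSeq promoter windows matched 5 of the 10 genes (Tgfb1, Tgfb2, Bmp4, Id2 and Id3), and 4 of these reach outside annotated exons (not Id3). The Tgfb2 promoter is printed because it is the 1 of these 4 with a TCF/LEF word, the core bound by the transcription factors through which β-catenin acts. The sequence covers chr1:186705990-186706239 (GRCm38.p6, minus strand), the 250 bases before the RefSeq start, with the word at -67 to -61 in capitals.
Tgfb2 promoter: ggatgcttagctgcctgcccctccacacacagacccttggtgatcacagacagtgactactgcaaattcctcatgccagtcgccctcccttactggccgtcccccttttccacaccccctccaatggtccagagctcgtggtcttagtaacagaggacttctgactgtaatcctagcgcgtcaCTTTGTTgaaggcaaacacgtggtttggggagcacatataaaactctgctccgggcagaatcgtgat
The search took CTTTG followed by AA, AT, TA or TT on both strands, and 14.8% of 32851 RefSeq promoter windows of 250 bases held at least 1 of these words, so the match is a description only. Tgfb2 was at 48.1, 36.8 and 43.1 CPM in DMSO, 49.6, 39.8 and 50.6 CPM at 1 µM, 56.9, 47.0 and 68.8 CPM at 1.5 µM, and 53.3, 35.0 and 35.1 CPM at 3 µM in cultures 1, 2 and 3. All 3 cultures were highest at 1.5 µM, and the groups overlapped. The log2 fold change at 1.5 µM was 0.43 ± 0.20 (edgeR adjusted p = 0.133, with culture as a block 0.0285), and the blocked call was lost in 6 of 12 fits without 1 library, up to 0.126 without the 1.5 µM library of culture 3. From 1.5 to 3 µM it was -0.48 ± 0.20 (edgeR adjusted p = 0.0905, with the block 0.0171). At 3 µM the difference from DMSO was -0.05 ± 0.20 (edgeR adjusted p = 0.827). Tgfb2 overlaps Gm26169 and Gm29491 on the opposite strand; Gm26169 had at most 1 count in any library.

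Bmp7 (chr2:172868012-172940321, minus strand), a BMP ligand that is expressed in many epithelia, was at 11.4, 6.60 and 10.3 CPM in DMSO in cultures 1, 2 and 3. It was at 13.2, 10.4 and 16.7 CPM at 1 µM, 20.6, 17.4 and 25.4 CPM at 1.5 µM, and 29.4, 29.5 and 33.2 CPM at 3 µM. Each culture was higher at each dose than at the dose before it, and the groups at 1.5 and 3 µM overlapped neither DMSO nor each other. Bmp7 rose by a log2 fold change of 1.15 ± 0.23 at 1.5 µM and 1.69 ± 0.24 at 3 µM (SE, n = 3 per group; edgeR adjusted p = 0.00587 and 0.000204). Both calls were kept in 12 of 12 fits without 1 library, and the call at 1.5 µM was lost without culture 1 (adjusted p = 0.0566). At 1 µM the value was 0.50 ± 0.23 (edgeR adjusted p = 0.446, with the block 0.0888), and the blocked fit without the DMSO library of culture 1 gave 0.68 (adjusted p = 0.0470).

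Bmp2 (chr2:133552159-133562885, plus strand), a BMP ligand best known from bone formation, was at 16.0, 21.4 and 19.7 CPM in DMSO and 11.1, 13.6 and 19.0 CPM at 1 µM in cultures 1, 2 and 3. It was at 12.0, 8.95 and 11.9 CPM at 1.5 µM and at 13.5, 12.0 and 18.01 CPM at 3 µM. The 1.5 µM group lay wholly below DMSO, and the 3 µM group overlapped it, with a value in each culture above that at 1.5 µM. Bmp2 fell by 0.80 on the log2 scale at 1.5 µM (SE 0.23; edgeR adjusted p = 0.0290), and the call was lost in 4 of 12 fits without 1 library: those of culture 2 in DMSO (0.0901) and at 1.5 µM (0.106), of culture 3 in DMSO (0.0620) and of culture 1 at 1.5 µM (0.0605). It was also lost without culture 1 (0.0751) or culture 2 (0.336). The blocked call was kept in 12 of 12. At 3 µM the value was -0.39 ± 0.23 (edgeR adjusted p = 0.172, with the block 0.0801); the blocked fit without the DMSO library of culture 3 gave -0.56 (adjusted p = 0.0447). From 1.5 to 3 µM it was 0.41 ± 0.23 (edgeR adjusted p = 0.210).

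Bmp4 (chr14:46383520-46390669, minus strand), a BMP ligand made by the stroma around many epithelia, was close to the detection limit. Its raw counts were 20, 8 and 12 in DMSO, 2, 6 and 8 at 1 µM, 0, 3 and 9 at 1.5 µM, and 0, 2 and 8 at 3 µM in cultures 1, 2 and 3. In CPM the DMSO libraries (0.646 to 0.889) lay above the other 9 (0 to 0.552). Since Bmp4 passed the filter through its DMSO libraries alone, this order was favoured by the selection and is a description. It was the 1 of 10 genes whose groups at 1 µM and DMSO did not overlap (19.4% of all genes tested). A count of 0 allows up to 3 counts, and such limits cover counting error only. The log2 fold change was -1.46 ± 0.97, -1.87 ± 1.01 and -1.73 ± 1.03 at 1, 1.5 and 3 µM (edgeR adjusted p = 0.619, 0.192 and 0.171, with the block 0.240, 0.0593 and 0.0638), so none of these differences passed, at 0 to 20 counts per library. Without culture 3 the adjusted p was 0.0396 at 1.5 µM and 0.0289 at 3 µM, and without the 3 µM library of culture 3 it was 0.0456 at 3 µM. Blocked fits passed without the DMSO or the 3 µM library of culture 3 at 3 µM (0.00657 and 0.0409), and without the DMSO, the 1.5 µM or the 3 µM library of culture 3 at 1.5 µM (0.00853, 0.0434 and 0.0479). All these fits compare with the DMSO libraries through which Bmp4 was selected. The selection favoured a fall, so they are descriptions and no support for one. Culture 3, which had the highest fibroblast and, in treated libraries, the highest endothelial sums, kept 8 or 9 counts at each dose; the part of these cells was not tested. Gm15217 and Gm15222 overlap Bmp4 on the opposite strand.

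Bambi encodes a membrane protein that resembles a type I receptor without a kinase domain and so blocks TGF-β and BMP receptors; it is also known as a target of β-catenin. It was at 22.7, 17.3 and 20.3 CPM in DMSO, 25.5, 20.4 and 21.3 CPM at 1 µM, 21.3, 17.3 and 16.7 CPM at 1.5 µM, and 16.1, 15.0 and 14.1 CPM at 3 µM in cultures 1, 2 and 3. The 3 libraries at 3 µM were the lowest of the 12, and the other groups overlapped. Bambi fell by 0.42 on the log2 scale at 3 µM against DMSO (SE 0.15; edgeR adjusted p = 0.0313, with the block 0.00378) and by 0.58 against 1 µM (SE 0.15; edgeR adjusted p = 0.00801). The call against DMSO was lost in 4 of 12 fits without 1 library, up to an adjusted p of 0.115 without the DMSO library of culture 1 (0.0524 without that of culture 3, and 0.0619 and 0.0599 without the 3 µM libraries of cultures 2 and 3). It was also lost without filter (0.0529), in the fit of these groups alone (0.0598) and without any 1 culture (0.105, 0.0903 and 0.154). The blocked call was kept in 12 of 12.

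**Figure D3:**
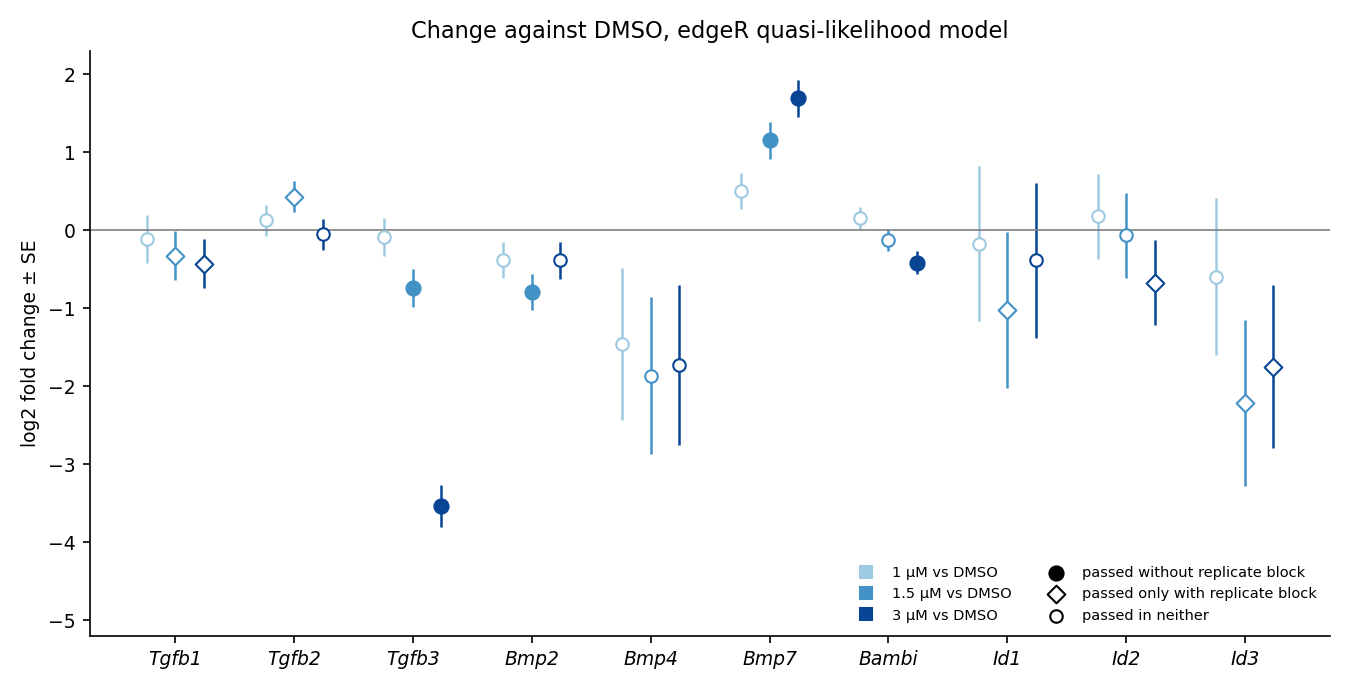
Log2 fold change against DMSO (y axis) with its SE for the 10 genes at 1, 1.5 and 3 µM, from the edgeR model without a culture term. Filled circles passed in that model, open diamonds only with culture as a replicate block, and open circles in neither; Tgfb3 at -3.54 and Bmp7 at 1.69 stand apart at 3 µM, and the ID genes have the widest errors with Bmp4.

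The ID proteins are helix-loop-helix proteins without a DNA-binding region that sequester E-protein transcription factors, and Id1, Id2 and Id3 are direct targets of BMP signalling. Id2 (chr12:25093801-25096092, minus strand) is the 1 of the 4 windows that holds GGCGCC, a word in BMP-responsive enhancers, and is printed for that reason. The bases from -250 to -162 of its window, up to the first GENCODE M21 exon base, are printed (chr12:25096254-25096342, GRCm38.p6, minus strand). The word at -231 to -226 is in capitals. This stretch lies inside the GENCODE M21 gene (chr12:25093799-25097140), so it is upstream of the RefSeq start only.
Id2 upstream: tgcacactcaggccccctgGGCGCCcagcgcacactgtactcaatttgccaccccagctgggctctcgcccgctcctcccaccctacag
GGCGCC was in 9.59% of the 32851 windows of 250 bases and the palindrome GTCTAGAC in 0.167% (both strands searched); the match is a description only.

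Id3 (chr4:136143497-136145755, plus strand) was at 189, 118 and 13.5 CPM in DMSO and 97.4, 98.8 and 16.0 CPM at 1 µM in cultures 1, 2 and 3. It was at 29.2, 35.2 and 4.46 CPM at 1.5 µM and 41.6, 44.5 and 9.32 CPM at 3 µM. Culture 3 was lowest in each group, so all groups overlapped, while each culture was lower at 1.5 and at 3 µM than in DMSO. Against DMSO, the log2 fold change was -2.22 ± 1.06 at 1.5 µM and -1.75 ± 1.04 at 3 µM (edgeR adjusted p = 0.146 and 0.173). With culture as a block it was -2.07 and -1.47 (edgeR adjusted p = 0.000413 and 0.000918), and both blocked calls were kept in 12 of 12 fits without 1 library. Without a block but without culture 3, the adjusted p was 0.00178 and 0.000781. Each culture was higher at 3 than at 1.5 µM, but this step did not pass with or without the block (edgeR adjusted p = 0.0933 and 0.760).

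Id1 (chr2:152736251-152737410, plus strand) was at 120.7, 84.7 and 12.5 CPM in DMSO and 93.5, 88.7 and 11.0 CPM at 1 µM in cultures 1, 2 and 3. It was at 47.4, 52.2 and 7.18 CPM at 1.5 µM and 89.3, 58.1 and 19.5 CPM at 3 µM. Culture 3 was again lowest in each group, and each culture had its lowest value at 1.5 µM. The log2 fold change at 1.5 µM was -1.03 ± 1.00 (edgeR adjusted p = 0.474), and with the block -0.95 (edgeR adjusted p = 0.0134), a call lost without the DMSO or the 1.5 µM library of culture 1 (0.0613 and 0.0674). From 1.5 to 3 µM the blocked value was 0.83 (edgeR adjusted p = 0.0254, without the block 0.654). Against DMSO, Id1 at 3 µM was -0.39 ± 0.99 (edgeR adjusted p = 0.757, with the block 0.687); it was higher than DMSO in culture 3 alone, and without that 3 µM library the blocked value was -0.50 (adjusted p = 0.0262).

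Id2, which is needed for alveolar development in the gland, was at 439, 304 and 127 CPM in DMSO and 424, 402 and 156 CPM at 1 µM in cultures 1, 2 and 3. It was at 289, 344 and 197 CPM at 1.5 µM and 259.5, 207 and 78.5 CPM at 3 µM. Each culture was lowest at 3 µM, and culture 3 was lowest in each group. At 3 µM the log2 fold change was -0.67 ± 0.55 (edgeR adjusted p = 0.313), and with the block -0.67 (edgeR adjusted p = 0.0163), a call lost without the DMSO library of culture 1 (0.0865) or the 3 µM library of culture 3 (0.0594). From 1.5 to 3 µM the blocked value was -0.77 (edgeR adjusted p = 0.0149, without the block 0.428). At 1.5 µM the cultures differed in direction, with culture 1 below and cultures 2 and 3 above DMSO, and the log2 fold change was -0.07 ± 0.55 (edgeR adjusted p = 0.941).

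The difference between cultures was tested in a model with group and culture, a test added after the counts had been seen. It passed for 6 of 10 genes, against 28.8% of all genes tested: Id1, Id3, Tgfb1, Id2, Bmp7 and Bambi (edgeR adjusted p = 0.000289, 0.000286, 0.000698, 0.00209, 0.0440 and 0.0485). Culture 3 was below the mean of cultures 1 and 2 by 3.77 to 8.27 times for Id1, 4.62 to 11.4 times for Id3 and 1.61 to 2.98 times for Id2 over the 4 groups. Tgfb1 went the other way, at 1.34 to 1.72 times that mean in culture 3. For Tgfb3 and Bmp2 the culture test gave adjusted p = 0.521 and 0.167. Culture 3 also had fibroblast sums of 23446 CPM in DMSO, against 2276 and 9734 CPM in cultures 1 and 2, and squamous sums of 5945 CPM at 3 µM, against 26437 and 23421 CPM; the part of these differences was not tested. Each culture is 1 animal with 1 tag (med, min or max) of unknown meaning, so animal, culture and what the tag stands for cannot be told apart.

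Levels of different genes were compared per kilobase (kb) of exon. In DMSO, Tgfb3 and Id2 were highest, at 140 ± 35.2 and 119 ± 64.2 CPM per kb (SD, n = 3), followed by Id1 at 62.6 ± 47.5 and Id3 at 59.7 ± 49.4. Tgfb1 was at 8.24 ± 2.44, Tgfb2 at 7.37 ± 0.983, Bmp2 at 5.35 ± 0.786, Bambi at 3.96 ± 0.537, Bmp7 at 2.35 ± 0.629 and Bmp4 at 0.348 ± 0.0551 CPM per kb. The ranges of neighbours in this order overlapped from Tgfb3 down to Tgfb2 and did not overlap below that. Tgfb3 was thus the most abundant of the 6 ligands per length in DMSO, with no overlap with the other 5. At 3 µM, Tgfb3 stood at 12.0 ± 0.0531 CPM per kb and Bmp7 at 7.63 ± 0.541, whose range overlapped those of Tgfb2 (7.10 ± 1.82) and Tgfb1 (6.11 ± 2.1). Id2 was then at 74.6 ± 38.2, Id1 at 48.0 ± 30.1 and Id3 at 17.7 ± 10.9 CPM per kb.

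Over the steps between doses, 0 of 10 genes passed from 1 to 1.5 µM (5.43% of all genes tested passed; 2 of 10 at an unadjusted p under 0.05, and 0 with DESeq2), and with the block Bmp7 rose and Id3 fell (21.9% of all genes, 11.3% higher and 10.5% lower). From 1.5 to 3 µM, 1 of 10 fell, Tgfb3 (29.7% of all genes; 12.7% lower), and with the block 2 rose, Bmp7 and Id1, and 4 fell, Tgfb2, Tgfb3, Bambi and Id2 (46.7% of all genes, 24.7% higher and 22% lower). From 1 to 3 µM, Bmp7 rose and Tgfb3 and Bambi fell (52% of all genes, 27.8% higher and 24.2% lower), and with the block Tgfb1, Id2 and Id3 also fell (66% of all genes, 33.1% higher and 32.9% lower). Along a straight line in dose, Bmp7 changed by 0.58 ± 0.081 per µM on the log2 scale, Tgfb3 by -1.26 ± 0.20 and Bambi by -0.16 ± 0.058 (SE; edgeR adjusted p = 0.000100, 0.000240 and 0.0280; 58.2% of all genes passed, 30.2% higher and 28% lower). The line describes Tgfb3 poorly, since -0.09 of its -3.54 was present at 1 µM. With the block, Tgfb1, Id2 and Id3 also had falling slopes (64.5% of all genes, 32.2% higher and 32.3% lower). The blocked slope of Bmp4 lay at the threshold (edgeR adjusted p = 0.04996), and its selection through the DMSO libraries favoured a falling slope.

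Of 87 other TGF-β and BMP pathway genes listed by role, all were in the count table and 80 passed the filter. At 1 µM, 0 of 80 passed (3 at an unadjusted p under 0.05, and 2 with the block), beside 0.242% of all genes (5.61% with the block). At 1.5 µM, 2 rose and 9 fell, beside 15.4% of all genes higher and 11.8% lower. At 3 µM, 11 rose and 29 fell, and the median log2 fold change was -0.41, beside -0.030 over all genes. The 40 of 80 at 3 µM stand beside 57.5% of all genes, the 11 that rose beside 29.9% and the 29 that fell beside 27.7%. Without culture 2 the count at 3 µM was 16, and at 1.5 µM it ranged from 0 without culture 2 to 21 without culture 3. With the block, 8 rose and 25 fell at 1.5 µM (22.3% of all genes higher and 24.3% lower). At 3 µM, 16 rose and 37 fell with the block (34.1% of all genes higher and 34.8% lower). With the block, each pathway gene named by rule passed at 3 µM, with edgeR adjusted p from 1.90e-06 (Bmper) to 0.0119 (Smad1). Fits of pathway genes that left out libraries were run without the block. The calls at 3 µM named in the next paragraphs were kept without any 1 library unless stated, but some did not pass without a whole culture. Without culture 1 these were Atoh8, Inhbb, Ski, Smad9, Smad1, Tgfbr1 and Id4 (edgeR adjusted p = 0.104, 0.0670, 0.0503, 0.0624, 0.148, 0.170 and 0.0509). Without culture 2 they were Eng, Inhba, Inhbb, Ltbp2, Ski, Smad9, Bmper, Smad1, Crim1, Tgfbr1, Tgfbr2 and Id4 (0.10, 0.0762, 0.0737, 0.0818, 0.0758, 0.135, 0.197, 0.236, 0.242, 0.121, 0.188 and 0.0722), and without culture 3 Crim1 (0.0715).

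**Figure D4:**
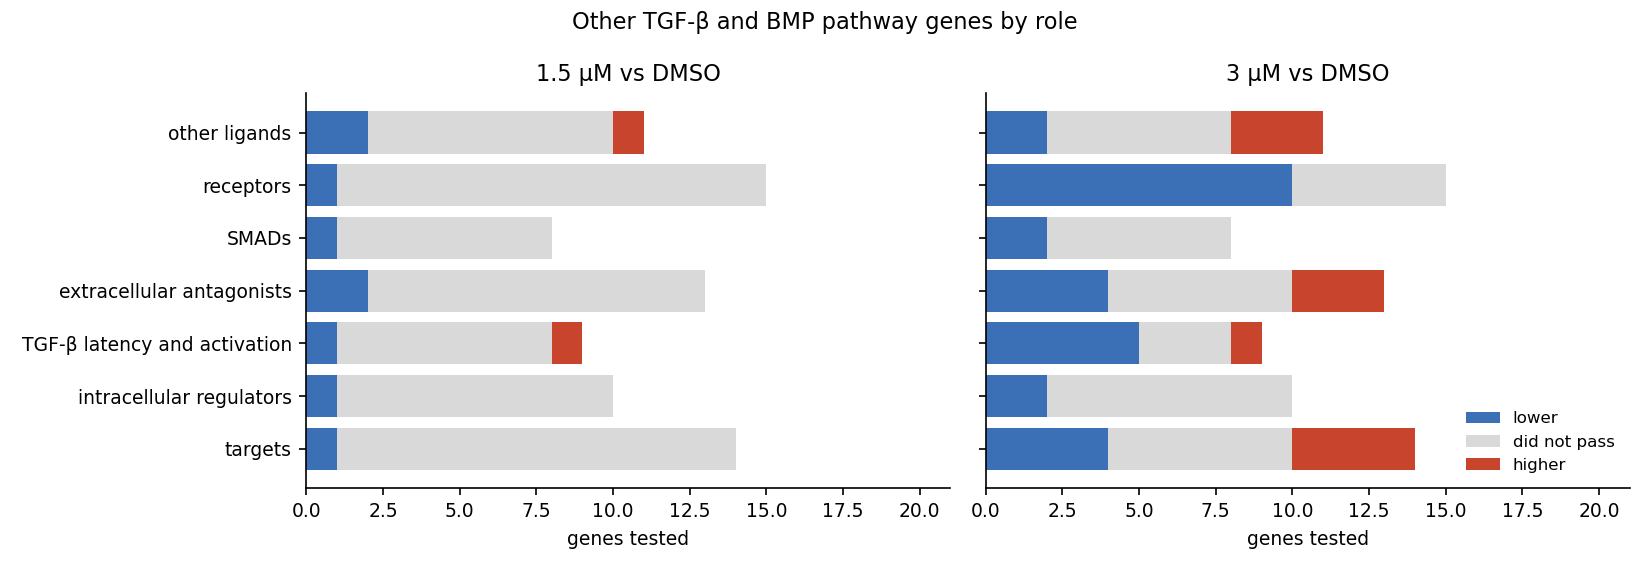
Number of other pathway genes in each role (bars, genes tested) that were lower, higher or did not pass against DMSO at 1.5 and 3 µM, in the model without a culture term. At 3 µM, 10 of 15 receptor genes were lower and 0 higher, while extracellular antagonists and targets were split. Of all genes tested, 27.7% were lower and 29.9% higher at this dose.

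Of 15 receptor genes, 10 fell at 3 µM and 0 rose, beside 27.7% of all genes lower and 29.9% higher; 11 fell with the block (34.8% of all genes). Roles were not tested against each other. Acvr1c, the type I receptor ALK7 for activin B and Nodal, which is abundant in fat cells, was at 31.4, 77.2 and 30.6 CPM in DMSO and 0.863, 1.35 and 0.138 CPM at 3 µM (log2 fold change -5.86 ± 1.01, edgeR adjusted p = 0.000776; -6.58 without the 3 µM library of culture 2). Eng, endoglin, a TGF-β co-receptor of endothelial cells, fell by 2.03 on the log2 scale (edgeR adjusted p = 0.00501). Fat-cell and endothelial marker sums fell at the same dose as given above; their part was not tested. The signalling receptors Tgfbr1 and Tgfbr2, named outside the rule for their role after their values were seen, fell by 0.55 and 1.23 on the log2 scale (edgeR adjusted p = 0.0128 and 0.0342). The Tgfbr1 call was lost in the fit of these groups alone (0.0599). The Tgfbr2 call was lost without filter (0.0522) and in 5 of 12 fits without 1 library: those of cultures 2 and 3 in DMSO (0.0554 and 0.128) and of cultures 1, 2 and 3 at 3 µM (0.0881, 0.0767 and 0.0591). Bmpr1a, a main BMP type I receptor named likewise, was at -0.11 ± 0.079 (edgeR adjusted p = 0.244).

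Of 8 SMAD genes, 2 fell at 3 µM (27.7% of all genes), and with the block 1 rose and 3 fell (34.1% and 34.8% of all genes). Smad9, a BMP-activated SMAD, was at 22.6, 9.65 and 1.83 CPM in DMSO and 0.863, 0.385 and 0.207 CPM at 3 µM (log2 fold change -4.56 ± 1.25, edgeR adjusted p = 0.0103, with the block 5.15e-06). Without the DMSO library of culture 1 the value was -3.55, and without its 3 µM library -5.26. Smad1 fell by 0.30 on the log2 scale (edgeR adjusted p = 0.0285, with the block 0.0119). Without the block the call was lost in the fit of these groups alone (0.0547) and without the 3 µM library of culture 1 (0.0875), the DMSO library of culture 2 (0.0891) or the 3 µM library of culture 2 (0.0537). The inhibitory SMADs, named likewise after their values were seen, were at -0.94 ± 0.43 for Smad6 (edgeR adjusted p = 0.0842, with the block 0.00302) and 0.53 ± 0.51 for Smad7 (0.391).

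Among 13 extracellular antagonists tested, 3 rose and 4 fell at 3 µM (3 and 6 with the block). The shares of all genes were 29.9% higher and 27.7% lower (34.1% and 34.8% with the block). Grem1, gremlin, which binds BMP2, BMP4 and BMP7 and keeps them from their receptors, was at 1.64, 2.74 and 0.485 CPM in DMSO and 8.63, 45.7 and 409.6 CPM at 3 µM in cultures 1, 2 and 3. All 3 cultures were higher, but the 3 µM values spread from 8.63 to 409.6 CPM (log2 fold change 6.66 ± 1.44, edgeR adjusted p = 0.00288). The value was 4.09 without the 3 µM library of culture 3, 3.66 without culture 3, and 7.31 and 7.58 without cultures 1 and 2. Crim1, a membrane protein that binds BMPs, was at 0.68 ± 0.26 (edgeR adjusted p = 0.0452, with the block 0.00114). Without the block the call was lost in 5 other settings and in 8 of 12 fits without 1 library. Each culture was higher at 3 µM, at 214, 155 and 139 CPM, than in DMSO, at 146, 97.6 and 72.9 CPM. Chrdl1, chordin-like 1, was at 14.0, 14.5 and 13.1 CPM in DMSO and fell to 1.25, 1.48 and 0.897 CPM (log2 fold change -3.51 ± 0.58, edgeR adjusted p = 0.000577). Bmper, which binds BMPs outside the cell, fell by 4.19 on the log2 scale (edgeR adjusted p = 0.0235), a call lost without filter (0.0542), without the 3 µM library of culture 1 (0.0665) or 2 (0.0741), and without the DMSO library of culture 3 (0.0659; log2 fold change -3.49). It was -5.16 without the 3 µM library of culture 3. With the block, the edgeR adjusted p of Bmper at 3 µM was 1.90e-06.

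Of 11 other ligands tested, 3 rose and 2 fell (4 and 4 with the block), beside 29.9% and 27.7% of all genes (34.1% and 34.8% with the block). Inhba, the activin A subunit, was at 2.49, 3.66 and 4.36 CPM in DMSO and 9.72, 19.6 and 116 CPM at 3 µM (log2 fold change 3.79 ± 1.01, edgeR adjusted p = 0.00922), and the value was 2.05 without the 3 µM library of culture 3 and 2.27 without culture 3. Inhbb, the activin B subunit, was at 301, 225 and 454 CPM in DMSO and 37.6, 51.7 and 150.2 CPM at 3 µM (log2 fold change -2.03 ± 0.52, edgeR adjusted p = 0.00720; -2.89 without the 3 µM library of culture 3). As with Grem1, the highest 3 µM value of both was in culture 3. In DMSO, culture 3 was also highest for Inhba and Inhbb, but lowest for Grem1.

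Of 9 genes of TGF-β latency and activation, 1 rose and 5 fell with or without the block. Of all genes, 29.9% rose and 27.7% fell (34.1% and 34.8% with the block). Ltbp3, which holds latent TGF-β in the matrix, was at 358, 349.8 and 336 CPM in DMSO and 107, 100.4 and 132 CPM at 3 µM, so it fell by 1.62 on the log2 scale (SE 0.12; edgeR adjusted p = 5.27e-06). Ltbp2, a matrix protein of that family that does not bind latent TGF-β, fell by 2.78 (edgeR adjusted p = 0.00356; -3.67 without the 3 µM library of culture 3, and -2.08 and -3.96 without cultures 1 and 3). Itgb6, the integrin subunit that activates latent TGF-β1 and TGF-β3 on epithelia, was at 8.49, 4.77 and 8.72 CPM in DMSO and rose to 23.5, 23.0 and 31.0 CPM (log2 fold change 1.81 ± 0.22, edgeR adjusted p = 8.99e-05).

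Of 10 intracellular regulators, 0 rose (2 with the block) and 2 fell: Nedd4l, a ubiquitin ligase for SMADs and receptors, by 1.45 on the log2 scale, and Ski, a SMAD co-repressor, by 0.47 (edgeR adjusted p = 0.000307 and 0.00534). Of 14 other target genes, 4 rose and 4 fell (5 and 6 with the block). The counts of regulators and targets stand beside 29.9% of all genes higher and 27.7% lower (34.1% and 34.8% with the block). Tgfbi, a matrix protein induced by TGF-β, was at 22.8, 31.3 and 85.3 CPM in DMSO and rose to 249, 261 and 300.4 CPM, and Cdkn1a, the cell-cycle inhibitor p21, rose by 1.99 on the log2 scale (edgeR adjusted p = 0.00101 and 0.000487). The log2 fold change of Tgfbi was 2.54, and 3.29 without the DMSO library of culture 3 and 3.24 without that culture. Hey1 and Atoh8, transcription regulators induced by BMPs in endothelium, fell by 3.08 and 3.34 (edgeR adjusted p = 0.000298 and 0.00995), and Atoh8 was at -4.52 without the 3 µM library of culture 2 and -4.03 without that culture. Endothelial marker sums also fell at this dose, from a mean of 387 to 57.7 CPM, and their part was not tested. Id4, the remaining ID gene, named after its values were seen, fell by 2.88 (edgeR adjusted p = 0.00277; -3.52 without the 3 µM library of culture 3, and -2.20 and -3.88 without cultures 1 and 3).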

How the data were processed

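The authors deposited whole-number counts by Ensembl gene, and log2 values made from them, for 12 stranded TruSeq libraries, per the labels' protocols and the file headers. The submitters' processing notes name TopHat2 2.1, Bowtie 1.1.0, HTSeq, DESeq2 and GRCm38 (mm10); the annotation release and strand setting are not given in the sources used here. The deposited log2 values equal log2 of counts scaled to 10 M plus 1 (0 values differed by more than 1e-06 on recomputing), so the counts alone were tested.

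Low genes were dropped by filterByExpr with the 4 groups. TMM-scaled counts of the 15316 genes left were tested two-sided in 1 robust quasi-likelihood model of group means across the 12 libraries (glmQLFit and glmQLFTest, edgeR 4.0.16, R 4.3.3), with Benjamini-Hochberg adjustment over these genes and a threshold of 0.05. Replicate numbers pair the libraries because, per the labels, each number is 1 animal; deviations from group means correlated in 18 of 18 pairs with the same number (0.177 to 0.840, median 0.505; median -0.212 in 36 pairs with different numbers). Deviations within a group sum to 0. The negative median for different numbers therefore goes with the positive one and is no separate evidence. The labels state no model, and the main fit has no culture term although the libraries are paired. It counts lasting differences between cultures as spread, so a gene that did not pass there may pass with the block. The fit with the replicate block is the alternative, printed where it changed a member's call or a count of pathway genes, and for some single pathway genes. Alternatives also covered scaling, filter, DESeq2 1.42.0, the compared groups alone, and leaving out each library or culture.

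No molecular identifiers are described. Replicate libraries differed beyond sampling noise (chi-square per degree of freedom at least 12.8). The members and lists were chosen with earlier results of these data known. Named were all 10 members and, per role, up to 2 pathway genes with the highest and up to 2 with the lowest log2 fold change among those that passed at 3 µM with a mean of at least 50 counts. Coordinates are those of the deposited table; 24902 of 25210 identifiers are in GENCODE M21 (GRCm38), 95.3% with a start within 1000 bases. Promoters are RefSeq sequences (GRCm38.p6).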

Additional observations from a re-analysis of the deposited data

How the results depend on the processing

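For single members against DMSO, 592 alternative values kept direction and side of the threshold, 30 lost the call, 14 gained it and 20 turned sign; starting from the blocked fit these numbers were 328, 16, 8 and 8. The cause was not tested, except that fits without libraries had fewer samples. With the replicate block, which uses the pairing by animal, the number of members that passed was 7 at 1.5 µM, 6 at 3 µM, 2 from 1 to 1.5 µM, 6 from 1.5 to 3 µM and 7 for the slope, and of the other pathway genes 2 at 1 µM and 33 at 1.5 µM; the block left 0 members at 1 µM. Bmp4 is among the 7 for the slope, and its selection favoured a fall. Library totals as the only scaling gave 3 members from 1.5 to 3 µM, and DESeq2 gave 18 pathway genes at 1.5 µM. That scaling moved the median of all genes at 3 µM by -0.20 (log2), and the share of higher genes among those that passed from 51.9% to 38.6%. The log2 fold change reversed for Id2 at 1.5 µM with the block (0.096) and with library totals (0.0055), and with library totals for Ski at 1.5 µM (0.015) and for Cdkn1a and Tgfbr1 at 1 µM (0.034 and 0.045); none of these passed.

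Leaving out 1 library or culture gave 0 to 5 members at 1.5 µM, 2 to 5 at 3 µM, 0 to 1 from 1 to 1.5 µM, 1 to 2 from 1.5 to 3 µM and 2 to 5 for the slope, 0 to 21 pathway genes at 1.5 µM and 16 to 47 at 3 µM, and 0 to 1 member at 1 µM with the block. The 5 members at 1.5 µM and at 3 µM, both without culture 3, include Bmp4. The log2 fold changes whose sign turned at 1 µM ranged from -0.33 to 0.079 for Tgfb1, -0.28 to 0.15 for Tgfb3, -0.70 to 0.42 for Id1, -0.21 to 0.61 for Id2, -1.14 to 0.11 for Id3, -0.46 to 0.081 for Crim1, -0.97 to 0.75 for Smad9, -0.35 to 0.23 for Cdkn1a, -0.10 to 0.039 for Tgfbr1, -0.81 to 0.066 for Tgfbr2 and -0.79 to 0.070 for Id4. At 1.5 µM they ranged from -0.47 to 0.36 for Id2, -0.14 to 0.038 for Ski, -0.19 to 0.44 for Cdkn1a and -1.50 to 0.29 for Id4, and at 3 µM from -0.31 to 0.044 for Tgfb2 and -0.94 to 0.21 for Id1. With the block the ranges were -0.25 to 0.081 for Tgfb2 at 3 µM, -0.31 to 0.18 for Tgfb3, -0.31 to 0.025 for Id1 and -0.69 to 0.0083 for Id3 at 1 µM, -0.50 to 0.14 for Id1 at 3 µM, and -0.19 to 0.36 for Id2 at 1.5 µM. Depth limits Bmp4 most, with 0 to 20 counts per library.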

Other observations

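By a rule written for all members, the 2 genes whose log2 CPM correlated best with each member over the 12 libraries were taken from the 12439 genes with a mean of at least 50 counts. The libraries share doses and cultures, so these values are descriptions with no test. Tgfb3 was most like Ggt1 (Pearson r = 0.996) and Plekhf1 (0.994), and Bmp7 most like Rpl36 (0.977) and Tex10 (0.976). Tgfb1 was most like Lum, a matrix gene on the fibroblast list (0.981), and Tbc1d2b (0.980). Id1 was nearest to Trim71 (0.978), Id2 to Siah1a (0.960), Id3 to Gclm (0.955), Bmp4 to Ctla2a (0.959), Bambi to Suv420h1 (0.951), Tgfb2 to Tap1 (0.906) and Bmp2 to Dock6 (0.905).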
